A study of Homo sapiens with 4 samples.

Results

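YAP and TAZ are the transcriptional coactivators of the Hippo pathway, and 9 genes of that pathway were followed here in U87 cells: YAP1, WWTR1 (which encodes TAZ), TEAD1, CCN1, CCN2, ANKRD1, AMOTL2, LATS2 and AJUBA. They were chosen by name, matched by transcript identifier to the deposited table of normalized counts and summed per gene. All 9 were found, with 41 of the 90643 matched transcript rows and 9 of 22031 genes. All 9 had a mean over the libraries above the limit of 10 used for testing.

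U87 is an established human glioblastoma line. Cells were given an oligonucleotide at 50 nM with lipofectamine 2000, and polyadenylated RNA was sequenced after 48 h. In the mimic group (2 libraries) it was a copy of tRF-3009a, a small RNA cut from a transfer RNA, and in the control group (2 libraries) it was ssGL2, a single strand of the luciferase siRNA siGL2. Each group has a library numbered 1 and a library numbered 2, written here as control 1, control 2, mimic 1 and mimic 2. The labels do not say what the number stands for, nor whether cultures were separate, and p-values therefore measure only the spread between these libraries. All 4 libraries come from a single cell line.

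In cells, the kinases STK3 and STK4 activate LATS1 and LATS2, which phosphorylate YAP and TAZ and keep them out of the nucleus. When the kinases are inactive, as in spread cells at low density, YAP and TAZ bind the TEAD transcription factors on DNA and switch on genes such as CCN1, CCN2 and ANKRD1. AMOTL2 and LATS2 are targets that feed back to restrain YAP and TAZ, whereas AJUBA is a LIM protein that binds and inhibits LATS kinases. RNA levels report neither the phosphorylation nor the location of YAP and TAZ.

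Recovered reads, which are approximate for higher values, came to between 28860788 and 33848402 per library. The libraries stood apart by number: 8301 of 16535 genes (50.2%) passed limma's test at an adjusted p under 0.05 between numbers, and 0 passed between mimic and control. Without mimic 2 the former count was 5372. The 0 calls between mimic and control came from a fit without a term for the number. With a gap between numbers like that of the data, that fit recovered no changed gene in simulated data. It therefore does not show that treatment had no effect. All 12 listed cell cycle genes fell in number 2, and all 10 listed targets of the integrated stress response rose. Of 10 inflammatory genes 9 rose and 1 did not pass. Over all genes tested 26% were called higher and 24.2% lower. These lists were chosen with earlier results of these data known, so their shared directions are a description only. The proliferation marker MKI67 had values of 13268 (control 1), 13035 (mimic 1), 2003 (control 2) and 2108 (mimic 2). ASNS, a target of ATF4, went from 857 and 914 to 18173 and 17176, and the chemokine gene CXCL8 from 898 and 1137 to 45336 and 28859. Of the glioma markers, VIM was at 121239 or more and CD44 at 17935 or more in every library. GFAP and SOX2 were at 29.7 or less and S100B was not matched. In number 2 VIM (2.12-fold), CD44 (2.07-fold) and NES (4.81-fold) fell and TNC rose (1.85-fold). CHI3L1, GFAP and SOX2 did not pass between numbers. Among markers of other cell types, the summed endothelial list was 537 and 596 in number 1 and 299 and 246 in number 2. Of its 5 tested genes 4 fell and passed the test. The other, VWF, had 11.4 and 17.1 in number 1 and 8.96 and 3.82 in number 2 and did not pass. VWF reached the limit of 10 only through number 1, so its direction supports nothing further. The summed epithelial list was 154 and 128 in number 1 and 411 and 417 in number 2. ESRP1 and CLDN7 rose in number 2, EPCAM fell and 2 genes did not pass. ESRP1 had 13.5 and 3.60 in number 1 and 201 and 173 in number 2. CLDN7 had 10.4 and 4.50 in number 1 and 121 and 143 in number 2. Both reached the limit of 10 only through number 2, so their calls, and the higher sum that includes them, support nothing further. The neuronal list was 2189 and 2159 in number 1 and 4052 in both libraries of number 2, where SYT1 and MAP2 rose, SNAP25 fell and 2 genes did not pass. Of the immune list, CD68 was between 7238 and 10220 and did not pass, PTPRC and CD14 were at 6.72 or less, and 3 genes were not matched. The part of these shifts in the values that follow was not tested, and in bulk RNA a change in the share of cells that express a gene cannot be told apart from a change in RNA per cell.

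**Figure D1:**
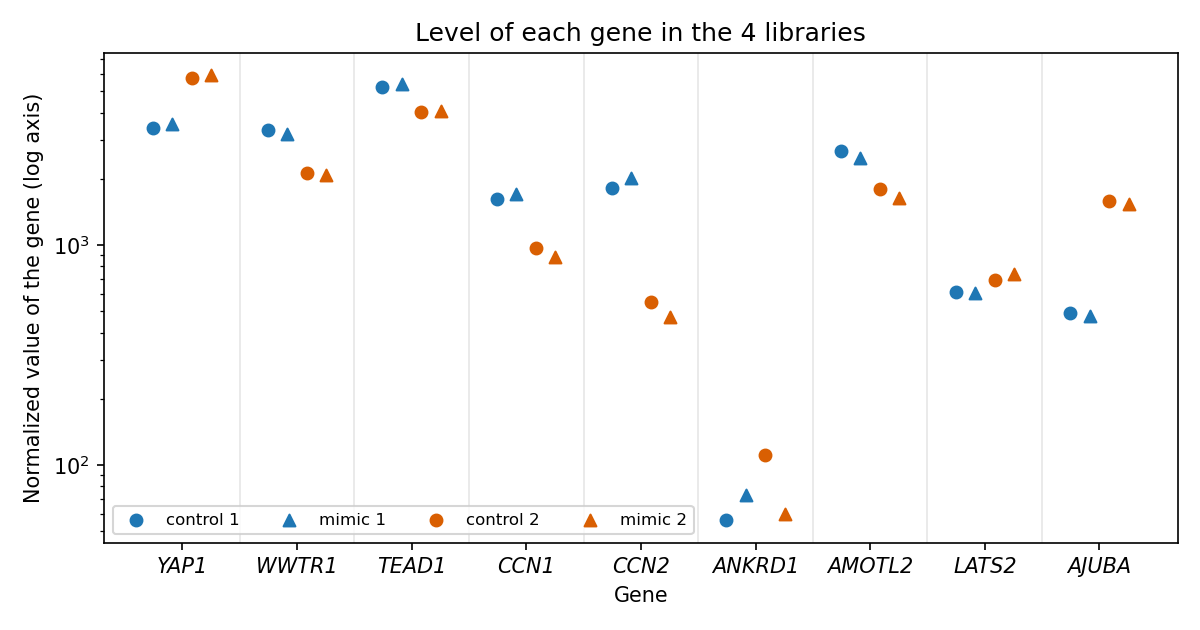
Normalized value of each of the 9 genes (log axis) in control 1, mimic 1, control 2 and mimic 2, with 1 point per library. Circles are controls, triangles mimic libraries, blue is number 1 and orange number 2. Points of the same number lie together for 8 genes, and ANKRD1 is the exception.

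The coactivator genes went in opposite directions between numbers. YAP1 had a normalized value of 3424 in control 1, 3535 in mimic 1, 5745 in control 2 and 5917 in mimic 2. Both number 2 libraries lay above both number 1 libraries. The log2 difference of number 2 against number 1 was 0.74 ± 0.07 (SE, n = 2 per number), a 1.68-fold rise with an adjusted p of 4.87e-05 by limma. WWTR1 had 3345 in control 1, 3210 in mimic 1, 2133 in control 2 and 2082 in mimic 2. It fell in number 2, by 1.55-fold (log2 difference -0.64 ± 0.08, adjusted p = 0.000166). These 2 genes encode related proteins that bind the same TEAD factors. Per kilobase of transcript, which allows levels of different genes to be compared, YAP1 stood at 0.926 times WWTR1 in control 1 and 0.989 times in mimic 1. In number 2 the ratio was 2.18 in control 2 and 2.25 in mimic 2. The summed level of both per kilobase was 1662 and 1537 in number 1 and 1907 and 1867 in number 2, so the composition differed more than the sum.

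YAP1 lies on chromosome 11 from 102110461 to 102233423 and WWTR1 on chromosome 3 from 149517235 to 149736714 (GRCh38). TEAD factors bind the letters GGAATG, which were searched on both strands in the 250 bases before each start site in RefSeq (GRCh38.p14), counted back from the start. Of 35116 such windows 11.9% held at least 1 match. Windows were found for all members but TEAD1 and CCN1, 10 windows for 7 members. A match was held by 5 members, each in only 1 window. YAP1 is shown because it is the only coactivator of the pair with a match. Its window (chr11:102110197-102110446, plus strand) is given with the match in capitals, which lies 162 to 157 bases before the start.

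YAP1: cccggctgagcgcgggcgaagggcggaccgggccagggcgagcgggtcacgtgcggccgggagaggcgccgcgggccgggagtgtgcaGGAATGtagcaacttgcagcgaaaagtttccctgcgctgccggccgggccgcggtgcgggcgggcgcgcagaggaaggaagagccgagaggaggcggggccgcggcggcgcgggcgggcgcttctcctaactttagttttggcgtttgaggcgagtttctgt

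Neither of the 2 WWTR1 windows held the letters. A match describes the letters only, and its absence in these windows says nothing about binding elsewhere.

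TEAD1, which encodes the DNA-binding partner, had 5257 in control 1, 5408 in mimic 1, 4036 in control 2 and 4068 in mimic 2. Number 2 was lower in both treatments, by 1.32-fold (log2 difference -0.40 ± 0.07, adjusted p = 0.00189). TEAD1 was the highest of the 9 genes per kilobase, at 1748 and 1747 in number 1 and at 1342 and 1405 in number 2. It held 74.7% and 77.5% of the summed per-kilobase level of the 4 TEAD genes in number 1 and 68.2% and 69.2% in number 2. TEAD4 came next with a mean of 443 per kilobase, followed by TEAD3 with 91.3 and TEAD2 with 53.2. TEAD3 had normalized values of 194 and 160 in number 1 and 359 and 359 in number 2, a rise of 1.02 on the log2 scale (adjusted p = 0.000517). TEAD2 rose by 0.57 (adjusted p = 0.0474), and TEAD4 had a log2 difference of -0.0079. TEAD1 lies on chromosome 11 from 12674591 to 12944483.

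The CCN genes encode secreted matricellular proteins and are among the most used readouts of YAP and TAZ. CCN2 (CTGF in GENCODE) had 1814 in control 1, 2021 in mimic 1, 551 in control 2 and 473 in mimic 2. It was lower in both number 2 libraries than in either number 1 library, by 3.75-fold (log2 difference -1.91 ± 0.11, adjusted p = 2.04e-06). Among all genes tested, 94.7% had a smaller absolute difference between numbers. CCN1 (CYR61 in GENCODE) had 1620 in control 1, 1700 in mimic 1, 973 in control 2 and 882 in mimic 2. It fell by 1.79-fold (log2 difference -0.84 ± 0.09, adjusted p = 9.36e-05). Per kilobase, CCN1 was at 0.921 times CCN2 in control 1 and 0.871 times in mimic 1. In control 2 it was at 1.81 times and in mimic 2 at 1.97 times. The order of these 2 genes was therefore reversed between numbers. CCN1 lies on chromosome 1 from 85580761 to 85583962 and CCN2 on chromosome 6 from 131948176 to 131951373.

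CCN2 had 3 matches to GGAATG, which 0.083% of the 35116 windows reached. They lie 169 to 164, 104 to 99 and 95 to 90 bases before the start in the window below (chr6:131951373-131951622, minus strand), and the gene is shown because it had the largest fall of the 9.

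CCN2: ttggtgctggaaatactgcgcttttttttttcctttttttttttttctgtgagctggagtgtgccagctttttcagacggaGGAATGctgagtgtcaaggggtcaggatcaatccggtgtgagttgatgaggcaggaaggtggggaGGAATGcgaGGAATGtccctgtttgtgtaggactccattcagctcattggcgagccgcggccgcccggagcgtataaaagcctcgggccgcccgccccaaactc

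ANKRD1, which encodes a cardiac ankyrin repeat protein and is a further standard target, was the lowest of the 9. It had 56.1 in control 1, 72.9 in mimic 1, 111 in control 2 and 60.1 in mimic 2, from 54 to 99 recovered reads. Control 2 was the highest and the numbers overlapped. The log2 difference between numbers was 0.35 ± 0.32 (adjusted p = 0.392), and without control 2 it was -0.09. No difference between numbers was detectable for ANKRD1 at this depth. ANKRD1 lies on chromosome 10 from 90912096 to 90921276.

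The upstream window of ANKRD1 held 2 matches, a number reached by 0.94% of all windows. AMOTL2 and AJUBA have 2 windows each, with 1 match at the later start and 0 at the earlier start. Each match is printed within 30 bases because AMOTL2 fell and AJUBA rose between numbers while ANKRD1 did not pass. GENCODE also annotates starts further upstream for these 3 genes, so the AMOTL2, AJUBA and second ANKRD1 match lie inside a GENCODE transcript. All are on the minus strand, at chr10:90921290-90921319 and chr10:90921198-90921227 for ANKRD1, chr3:134374499-134374528 for AMOTL2 and chr14:22976884-22976913 for AJUBA. In AMOTL2 the match is to the other strand.
ANKRD1 match 1: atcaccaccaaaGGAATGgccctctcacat
ANKRD1 match 2: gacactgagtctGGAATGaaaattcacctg
AMOTL2: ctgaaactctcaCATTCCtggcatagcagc
AJUBA: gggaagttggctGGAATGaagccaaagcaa

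CArG boxes are the sites of SRF, which shares CCN1, CCN2 and ANKRD1 as targets. They occurred in 1.16% of all windows and in 0 of the 10 windows of the members, where CCN1 has none. Beside so low a share, 0 of 10 says nothing about SRF at these genes.

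The feedback and regulator genes also split. AMOTL2, an angiomotin that binds YAP and holds it at junctions, had 2678 in control 1, 2494 in mimic 1, 1792 in control 2 and 1634 in mimic 2. It fell by 1.51-fold in number 2 (log2 difference -0.59 ± 0.09, adjusted p = 0.000508). LATS2, the kinase that phosphorylates YAP and TAZ, had 613 in control 1, 607 in mimic 1, 693 in control 2 and 738 in mimic 2. Its number 2 values were both higher, but the log2 difference of 0.23 ± 0.10 did not pass (adjusted p = 0.0947). AJUBA, the LIM protein, had 490 in control 1, 475 in mimic 1, 1589 in control 2 and 1536 in mimic 2. It rose by 3.23-fold (log2 difference 1.69 ± 0.10, adjusted p = 1.62e-06), the largest rise of the 9. AMOTL2 lies on chromosome 3 from 134355874 to 134375479, LATS2 on chromosome 13 from 20973032 to 21061547 and AJUBA on chromosome 14 from 22971174 to 22982642.

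Counted over the 9 genes, 2 rose (YAP1 and AJUBA), 5 fell (WWTR1, TEAD1, CCN1, CCN2 and AMOTL2) and 2 did not pass. Over all genes tested 26% were called higher and 24.2% lower between numbers. All 9 had a mean of at least 50, and with the limit set there 7814 of 12781 genes were called. For 8 of the 9 genes the numbers did not overlap, as for 75.7% of all genes, and 2 of the 9 (CCN2 and AJUBA) differed by over 2-fold, as 19.3% did. The median log2 difference of the 9 was -0.40, beside 0.01 over all genes, and the median absolute difference was 0.64 beside 0.45. Each of the 7 calls was made again by edgeR (50.2% of all genes called) and by DESeq2 (44.8%) on recovered reads, and with any 1 library left out. The difference was also present within each treatment: CCN2 was at -1.72 within control and -2.09 within mimic, AJUBA at 1.69 and 1.69, YAP1 at 0.75 and 0.74, and WWTR1 at -0.65 and -0.62. ANKRD1 alone changed sign, with 0.97 within control and -0.27 within mimic.

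Per kilobase, the order of levels differed between numbers. In number 1, TEAD1 was followed by CCN2 (776 and 864), WWTR1 (863 and 773) and YAP1 (799 and 764), whose ranges overlapped. CCN1 (715 and 752) and AMOTL2 (639 and 583) came next, then AJUBA (138 and 133), LATS2 (119 and 113) and ANKRD1 (28.4 and 36.8). In number 2, TEAD1 was followed by YAP1 (1307 and 1292), WWTR1 (600 and 575), AJUBA (468 and 460), then CCN1 (426 and 398) and AMOTL2 (416 and 378), which overlapped. CCN2 (236 and 202), LATS2 (134 and 136) and ANKRD1 (56.1 and 30.4) were lowest. CCN2 thus moved from among the highest levels to near the lowest.

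The comparison of mimic with control asked whether these genes differ after the transfer RNA fragment is introduced. None of the 9 genes passed. Every gene's mimic and control values overlapped, and 12.4% of all genes had groups that did not overlap. For the 8 genes whose numbers did not overlap, mimic and control had to overlap, because each treatment holds a library of each number. Their overlap therefore says nothing about the mimic. None of the 9 genes differed by over 2-fold, as 2.06% of all genes did. Called genes were 0 of 16535 (0%) with limma, edgeR and DESeq2, and 0 of the 9 had an unadjusted p under 0.05 with any of these tools, against 26, 35 and 23 genes of the 16535. The fitted log2 differences were 0.04 ± 0.40 for YAP1, -0.05 ± 0.36 for WWTR1, 0.03 ± 0.26 for TEAD1, -0.04 ± 0.46 for CCN1 and -0.03 ± 0.95 for CCN2 (SE, n = 2 per group). They were -0.25 ± 0.48 for ANKRD1, -0.12 ± 0.34 for AMOTL2, 0.04 ± 0.25 for LATS2 and -0.05 ± 0.84 for AJUBA, each at an adjusted p of 1.00. The median of the 9 was -0.04, beside -0.01 over all genes, and the median absolute difference was 0.04 beside 0.11.

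Within a number, where the 2 treatments can be set side by side without the gap between numbers, the differences were small for 8 genes. YAP1 was at 0.05 within number 1 and 0.04 within number 2, AJUBA at -0.05 and -0.05, WWTR1 at -0.06 and -0.03 and TEAD1 at 0.04 and 0.01. AMOTL2 was lower in the mimic within both, at -0.10 and -0.13. CCN2 was at 0.16 within number 1 and -0.22 within number 2, CCN1 at 0.07 and -0.14, and LATS2 at -0.01 and 0.09, and ANKRD1, at its low counts, at 0.37 and -0.87. These 4 genes had opposite signs in the numbers, as 50% of all genes did. These within-number values rest on 1 library per treatment and have no test. The SE of the fitted difference includes the gap between numbers, and for CCN2 it was 0.95, so in this fit 0 calls does not bound the response closely. When a library was removed, numbers 1 and 2 were no longer balanced over the treatments, and each of the 9 differences changed sign in at least 1 of the 4 fits: CCN2, for example, ran from -1.08 to 1.01 and AJUBA from -0.89 to 0.80.

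**Figure D2:**
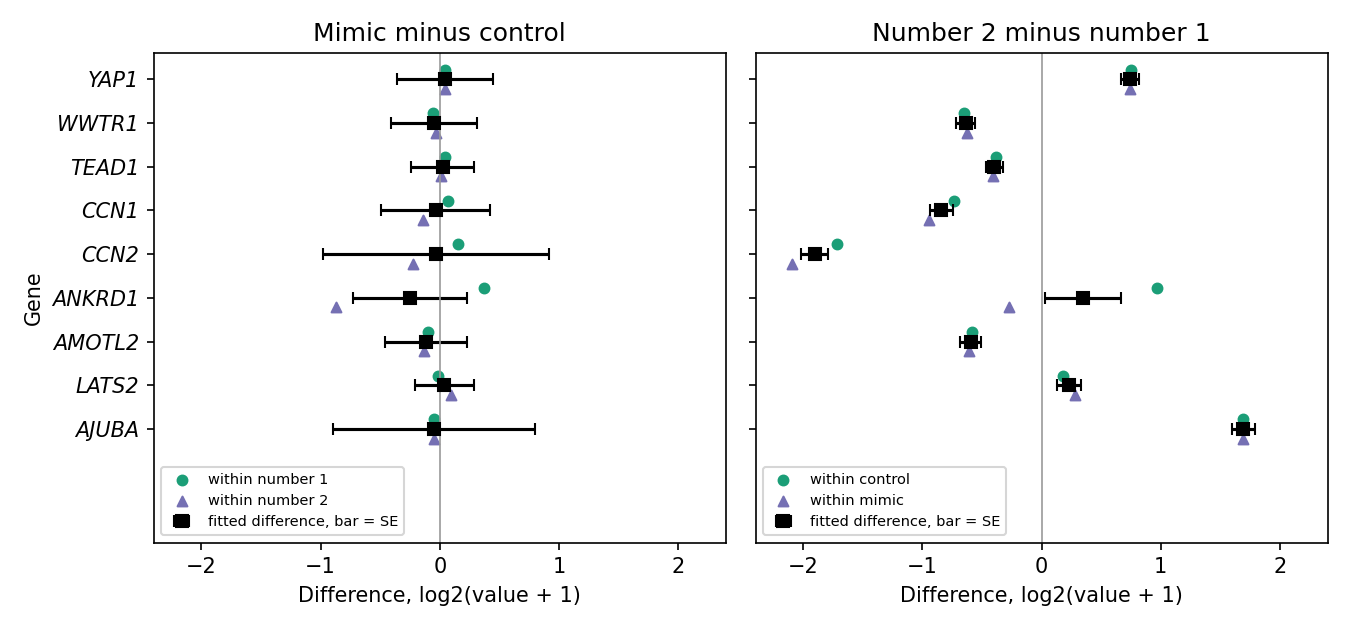
Log2 difference of each of the 9 genes for mimic minus control (left) and number 2 minus number 1 (right), both on the log2(value + 1) scale. Squares are fitted differences with their SE, and circles and triangles are the differences within a number (left) or within a treatment (right). On the left the SE of every gene spans 0, and on the right CCN2 at -1.91 and AJUBA at 1.69 lie farthest from it.

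Transcripts of the members were examined singly, with p-values adjusted over 58500 transcripts. How reads are split among overlapping transcripts is an estimate, so these values are less certain than the gene sums. Of 41 rows, 21 had a mean of at least 50, and CCN2 and ANKRD1 had 1 row each. Between numbers 7 of 23 tested member transcripts passed, from 6 of the 9 genes, beside 8.32% of all transcripts tested. That share was not taken among transcripts of a like level, so the 7 are not read as an excess. Between mimic and control 0 member transcripts passed. AJUBA-201, which codes for 538 residues, had 460 in control 1, 407 in mimic 1, 1158 in control 2 and 1066 in mimic 2. AJUBA-203, annotated with a later start and 121 coding residues, had 15.6 in control 1, 57.6 in mimic 1, 373 in control 2 and 444 in mimic 2. Both rose, at log2 differences of 1.36 ± 0.13 (adjusted p = 0.0179) and 3.71 ± 0.66 (adjusted p = 0.0485). AJUBA-203 made up 3.18% and 12.1% of the gene's value in number 1 and 23.5% and 28.9% in number 2.

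YAP1 was spread over 7 rows with a mean of at least 50. YAP1-201, which codes for 504 residues, rose from 1269 and 1558 to 2986 and 2637 (log2 difference 1.00 ± 0.14, adjusted p = 0.0321). YAP1-209, with 492 residues, had 1301 and 1229 in number 1 and 1198 and 1940 in number 2 and did not pass (adjusted p = 0.543). One internal coding exon of 114 nt (chromosome 11, 102186018 to 102186131), which encodes the second WW domain, is present in YAP1-210 and absent in YAP1-202. WW domains bind the proline-rich motifs of partners such as LATS and the angiomotins. Coding transcripts that span the exon's position but lack it held 12.5% in control 1, 16.1% in mimic 1, 17.0% in control 2 and 15.1% in mimic 2, without a split by number or treatment. WWTR1-203 fell, from 2685 and 2783 to 1594 and 1561 (adjusted p = 0.0188), while WWTR1-201, from a later start and with the same 400 coding residues, had 647 and 409 in number 1 and 516 and 497 in number 2 (adjusted p = 0.966). For TEAD1, neither TEAD1-206 (adjusted p = 0.0666) nor TEAD1-203 (adjusted p = 0.0889) passed singly. AMOTL2-201 fell by 0.65 on the log2 scale (adjusted p = 0.0331), and AMOTL2-202, with 746 and 371 in number 1 and 447 and 335 in number 2, did not pass (adjusted p = 0.520).

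**Figure D3:**
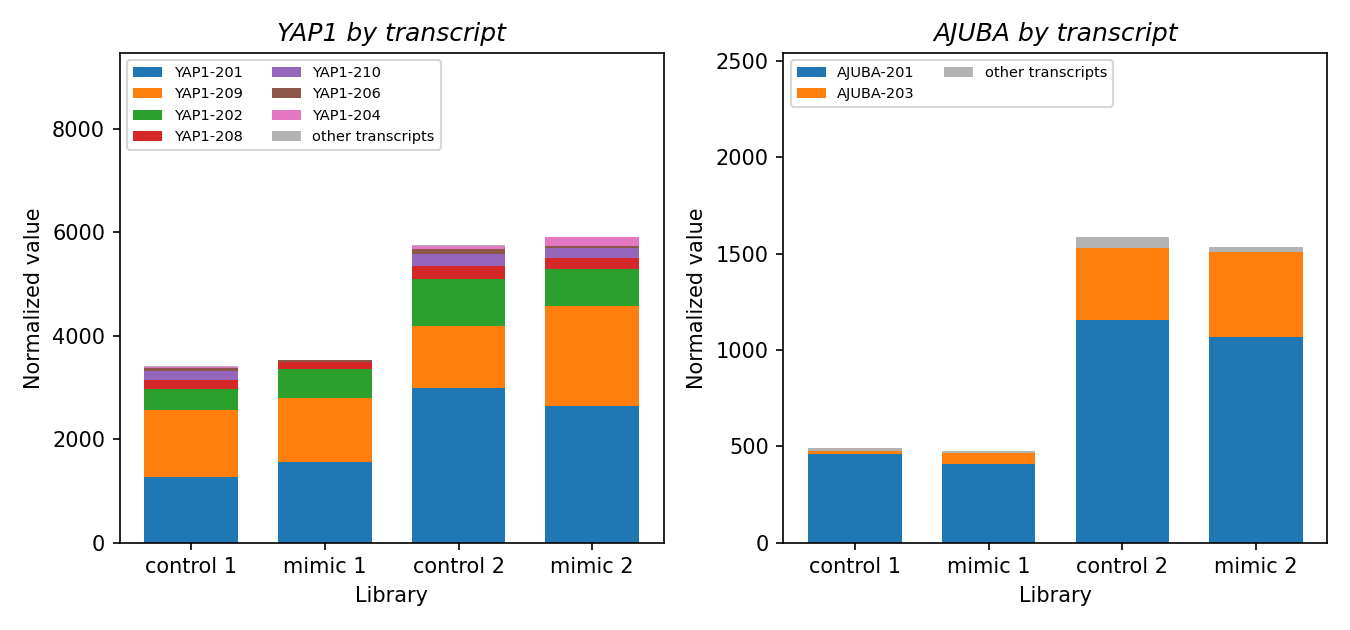
Normalized value of YAP1 (left) and AJUBA (right) in each library, stacked by transcript, with rows under a mean of 50 pooled as other transcripts. AJUBA-203 is a thin band in number 1 (15.6 and 57.6) and a wide one in number 2 (373 and 444).

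Other genes of the pathway were taken from lists that were chosen with earlier results of these data known. Of 17 further genes of a published YAP and TAZ target signature 16 were matched and tested, and FOXF2 was not matched. Between numbers 4 rose, 8 fell and 4 did not pass, with a median log2 difference of -0.25. Over all genes tested, 26% were called higher and 24.2% lower. GADD45A, a stress-induced growth arrest gene, had 2548 in control 1, 2766 in mimic 1, 9361 in control 2 and 9323 in mimic 2, a rise of 1.81 on the log2 scale (adjusted p = 4.09e-07). IGFBP3, which encodes an insulin-like growth factor binding protein, rose by 1.28 (adjusted p = 0.000239), and FJX1 rose by 0.68 (adjusted p = 0.000323). F3, the tissue factor gene, went from 1007 and 935 to 521 and 490 and fell by 0.94 (adjusted p = 8.94e-05). The targets therefore did not share a direction. Between mimic and control 0 of the 16 passed in the fit without a term for the number. The 4 with the widest difference were IGFBP3 (-0.42), RBMS3 (0.21), FJX1 (-0.17) and TGFB2 (-0.13). IGFBP3 was lower in the mimic within both numbers, with 11350 in control 1 and 7666 in mimic 1, and 24922 in control 2 and 20491 in mimic 2.

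Of 17 Hippo kinases and their regulators, 5 rose between numbers, 7 fell and 5 did not pass, with a median of -0.21. Beside these counts, 26% of all genes tested were called higher and 24.2% lower. STK4, the MST1 kinase at the head of the cascade, had 2746 and 2792 in number 1 and 5000 and 5230 in number 2, a rise of 0.88 (adjusted p = 1.92e-05), while its paralog STK3 had a log2 difference of -0.03. NF2, which encodes merlin, an upstream activator of LATS, had 643 and 834 in number 1 and 422 and 409 in number 2 and fell by 0.82 (adjusted p = 0.00110). WWC1, which encodes the scaffold KIBRA, fell by 0.74 (adjusted p = 0.00247), and its paralog WWC3 rose by 0.61 (adjusted p = 0.000741). LATS1 had a log2 difference of -0.11 and did not pass (adjusted p = 0.401). LIMD1, a LIM protein related to AJUBA, fell by 0.59 (adjusted p = 0.000522), in the direction opposite to AJUBA. Between mimic and control 0 of 17 passed, and the widest differences were WWC1 (-0.19), NF2 (0.16), TAOK1 (0.16) and WTIP (-0.14).

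Of the 9 TEAD paralogs, VGLL cofactors and angiomotins, 8 were matched, 4 rose between numbers, 2 fell and 2 did not pass. The shares over all genes tested were 26% called higher and 24.2% lower. VGLL3, a cofactor that competes for TEAD, fell by 0.72 (adjusted p = 0.000274), and VGLL4, a repressor of TEAD activity, rose by 0.51 (adjusted p = 0.000753). The 4 include VGLL2, another cofactor of the family, which had 10.4 and 6.30 in number 1 and 72.8 and 63.0 in number 2. It passed the filter on low values only through number 2, so its call supports nothing further. AMOTL1 had 1014 and 933 in number 1 and 557 and 549 in number 2 and fell by 0.81 (adjusted p = 0.000186), in the same direction as AMOTL2. Between mimic and control none of the 8 passed, and the widest differences among genes with a mean of at least 50 were AMOT (-0.42), TEAD2 (0.16), TEAD4 (-0.14) and TEAD3 (-0.14).

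MRTF and SRF drive actin genes and share targets with YAP and TAZ. Of 13 tested genes of that list 2 rose between numbers, 6 fell and 5 did not pass, with a median of -0.27. Among all genes tested, 26% were called higher and 24.2% lower. ACTB, the beta actin gene, whose reads may be shared with near-identical actin copies, had 140461 and 118524 in number 1 and 69170 and 61369 in number 2 and fell by 0.99 (adjusted p = 0.000101). VCL, which encodes vinculin of focal adhesions, fell by 0.92 (adjusted p = 1.30e-05), MRTFB, an SRF coactivator gene, by 0.81 (adjusted p = 6.09e-05) and TPM1, a tropomyosin gene, by 0.79 (adjusted p = 4.49e-05). Between mimic and control 0 of 13 passed, with 12 of them lower and a median of -0.14, beside -0.01 over all genes. The 13 values come from the same 4 libraries and are not separate observations, and their shared direction was not tested. The widest differences were ACTB (-0.21), MRTFA (-0.16), FHL2 (-0.15) and FLNA (-0.15).

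**Figure D4:**
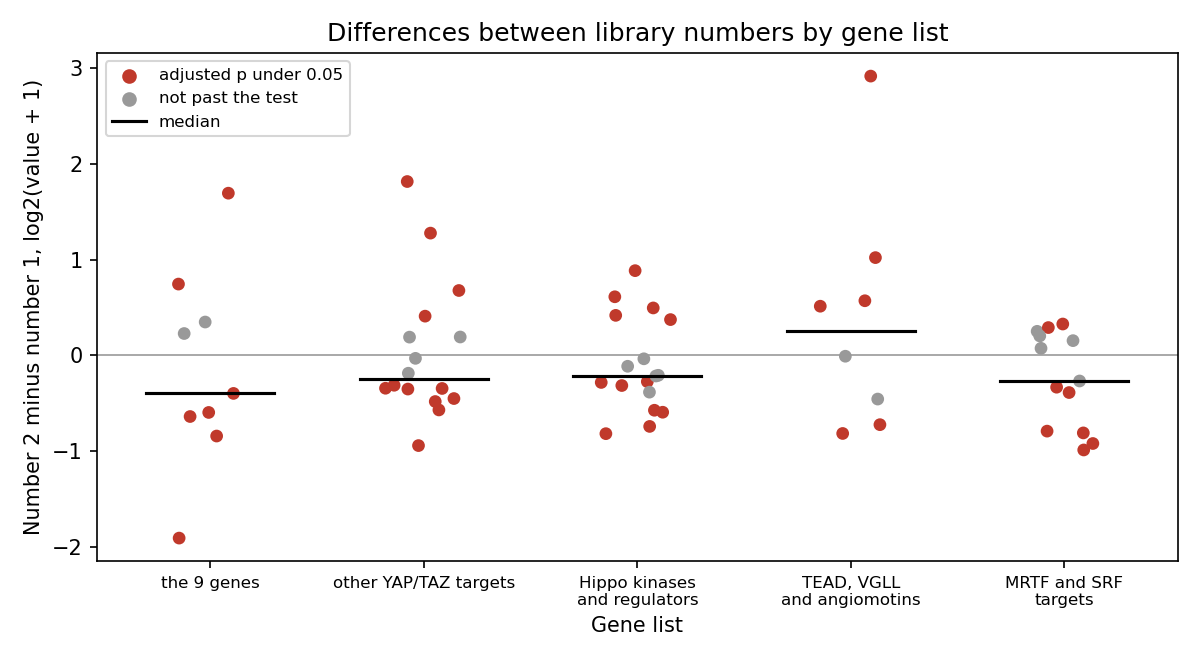
Log2 difference of number 2 against number 1 for each tested gene of the 5 lists, with red points past an adjusted p of 0.05, grey points not past it and black lines at the list medians. Red points lie on both sides of 0 in every list. CCN2 at -1.91 is the lowest point, and the highest is VGLL2 at 2.91, which passed the filter on low values only through number 2.

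The genes with the pattern most like CCN1 and CCN2 over the 4 libraries were sought among 6136 other protein-coding genes with a mean of at least 1000, by the Euclidean distance of their centred log2 values. Nearest to CCN2 were FANCI (distance 0.054), LGR4 (0.058) and STMN1 (0.070). FANCI, a DNA repair gene, had 3960 in control 1, 4243 in mimic 1, 1161 in control 2 and 1032 in mimic 2. Nearest to CCN1 were WBP11 (0.034), TTL (0.047) and HNRNPAB (0.047). WBP11 had 3750 in control 1, 3922 in mimic 1, 2222 in control 2 and 1982 in mimic 2. With 4 points, a small distance is a description of levels only.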

How the data were processed

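RNA of 4 U87 libraries was poly(A) selected and read from both ends, per the labels' protocols. Reads were handled with kallisto and DESeq2 against hg38, per the submitters' processing notes, which give no roles; versions, annotation and filters are not given in the sources used here. The authors' deposited table holds a normalized signal per transcript. Low values were whole multiples of 1 step per library in 95.6% to 99.7% of cases (tolerance 0.1). Dividing all values by the step and rounding gave recovered reads. The step was checked on low values only, so recovered reads of higher values are approximate. Of 100809 transcripts 89.9% matched GENCODE 29 without version; the rest, 3.25% to 3.56% of values, were left out. Per-kilobase levels divide each transcript by its annotated length.

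Gene sums were tested with limma (trend, log2(value + 1), mean of at least 10, two-sided, Benjamini-Hochberg over 16535 genes), for mimic against control and for number 2 against number 1, without other terms. The scale understates changes of low genes. With 2 against 2 libraries an exact permutation p cannot go below 0.333, so none is given. The members and lists were chosen with earlier results of these data known. Genes named beside the members were, per list and comparison, the 4 with the widest difference at a mean of at least 50, with the first gene of each cell state list; STK3, LATS1, LIMD1, VGLL2, VGLL4 and the cell type markers were added after their values were seen. The limma fits were tested on simulated reads first, with 2-fold and 4-fold changes in genes above a read limit that ANKRD1 did not reach. With a gap between numbers like that of the data, the mimic fit without a term for the number recovered no changed gene. The fit with the replicate block recovered 99 and 100 of 100, with 13 false calls. The simulated gap was the same in both treatments, which favours the block by construction, so this does not vouch for block calls in the data. The absence of calls in the limma fit without that term does not show the absence of a response. The edgeR and DESeq2 fits were not simulated. R 4.3.3, limma 3.58.1, edgeR 4.0.16, DESeq2 1.42.0 and Python 3.11.15 were used.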

Additional observations from a re-analysis of the deposited data

Results flagged for a closer look

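Of the 9 genes, 4 had a mimic difference of opposite sign within the 2 numbers, and the difference between the numbers was not tested. The log2 differences of mimic and control within number 1 and within number 2 were 0.0693 and -0.141 for CCN1, 0.155 and -0.222 for CCN2, 0.371 and -0.873 for ANKRD1 and -0.0142 and 0.0914 for LATS2. Of all genes tested, 50% had opposite signs. ANKRD1 rests on 54 to 99 recovered reads per library.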

How the results depend on the processing

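The alternatives were pseudocounts of 0.5 and 8, no filter or a mean of at least 50, TMM or per-million scaling, recovered reads in limma voom, edgeR or DESeq2, single transcripts, each library left out, the replicate block with and without a GC correction (lowess span 0.3), and treatment as a term for the number comparison. The labels do not make same-numbered libraries pairs; their deviations from the group means correlated at 0.745 across genes, over 2 pairs. With the replicate block, genes called between mimic and control went from 0 to 117 with limma (0.708% of genes), 91 with edgeR (0.55%) and 5 with DESeq2 (0.0302%), and to 2 (0.0121%) with the block and GC correction; none was a member, and IGFBP3 was called by the limma block (adjusted p = 0.00138). The SE of the mimic difference was 0.118 for CCN2, 0.0951 for YAP1 and 0.121 for AJUBA with the limma block. With the block and GC correction YAP1 was at -0.0053 and TEAD1 at -0.0083. Of 162 alternative values of the mimic difference of members, 25 changed sign and none passed. CCN1 was at 0.0020 and CCN2 at 0.0046 under per-million scaling, CCN2 at 0.079 with edgeR and 0.081 with DESeq2, and with single transcripts WWTR1 was at 0.011 and AMOTL2 at 0.065. With 1 library left out the differences ran from -0.33 to 0.42 for YAP1, -0.37 to 0.28 for WWTR1, -0.18 to 0.23 for TEAD1, -0.51 to 0.44 for CCN1, -1.08 to 1.01 for CCN2, -0.74 to 0.23 for ANKRD1, -0.42 to 0.19 for AMOTL2, -0.10 to 0.18 for LATS2 and -0.89 to 0.80 for AJUBA. Between numbers, 133 of 135 member values kept direction and call. TEAD1 lost its call with single transcripts, and ANKRD1 ran from -0.0875 (without control 2) to 0.79 (without mimic 2) with 1 library left out. The count of genes called between numbers was 8301, 4865 of 58500 with single transcripts, and 5372 (without mimic 2) to 8143 with 1 library left out; the causes were not tested.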
